A study of Mus musculus with 6 samples.

Results

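The Notch genes described here are the receptors Notch1, Notch2, Notch3 and Notch4, the ligands Jag1, Jag2 and Dll1, and the target genes Hes1, Hes5 and Hey1. Their members are all probe sets on the array that the annotation assigns to exactly 1 of these 10 genes. These are 10 of 18193 genes named on the array. The rule gave 19 of 45101 probe sets, 9 for receptors, 6 for ligands and 4 for targets. The measurements come from modioli of CBA/CaJ mice. The modiolus is the central pillar of the cochlea. It houses the spiral ganglion neurons, glia, blood vessels and bone. In the noise-exposed group, 3 female mice of 1 litter had received a 5 h exposure to noise of 5 to 20 kHz at 110 dB SPL when 4 weeks old, and their tissue was taken 29 days later, at an age of 57 days. The unexposed group held 3 mice that stayed in the holding room, 1 female and 2 males of 3 other litters, aged 53 to 59 days at dissection. Each mouse gave 1 array from the modioli of both ears pooled. The noise-exposed mice and unexposed replicate 1 were dissected on the same day, and unexposed replicates 2 and 3 on a later one.

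Notch receptors are membrane proteins that are activated by Jagged or Delta ligands on a neighbouring cell. Ligand binding lets the metalloprotease ADAM10 and then gamma-secretase cut the receptor, and the released intracellular part joins the DNA-binding protein RBPJ to switch on target genes such as the HES and HEY repressors. In the developing organ of Corti the pathway sets the pattern of hair cells and supporting cells, and in vessels it acts in mural and endothelial cells.

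The authors set a signal cutoff between 4.2 and 4.3 on the log2 scale, where the fitted distributions of background and of expressed probe sets cross. On each array 24671 to 25371 probe sets exceeded it. Pairs of noise-exposed arrays correlated across probe sets at r of 0.988 to 0.991, pairs of unexposed arrays at 0.975 to 0.984, and pairs of 1 array from each group at 0.979 to 0.988; probe sets are not independent replicates. Total RNA was 10 to 18 ng in noise-exposed and 8 to 21 ng in unexposed mice. The labelled tissue matched its markers: 9 of 10 fixed genes of spiral ganglion neurons and all 7 measured genes of Schwann and satellite glia exceeded the cutoff on every array. Of 8 hair cell genes, 1 lay above it on all 6 arrays and 5, among them Myo7a, Pou4f3 and Atoh1, lay below it on all 6. All 9 genes listed as markers of central glia, the oligodendrocytes and astrocytes of the nerve's central part, exceeded it on every array. Pooled tissue does not show which cells made these transcripts. The summed linear signal of the 9 genes was 10010 to 10710 on the noise-exposed arrays and 7966 to 10170 on the unexposed arrays. The 7966 was on unexposed replicate 1, where Cnp alone made up 4029 of it. Cnp varied little, from 3886 to 4366 over the 6 arrays. Without Cnp the sums were 5647, 6493 and 6823 on the noise-exposed arrays and 3938, 5891 and 5732 on the unexposed arrays. The myelin genes Mobp and Mog were higher on every noise-exposed array than on any unexposed one, by 0.78 and 0.51 on the log2 scale. Neither passed (limma, adjusted p = 0.667 and 0.697), and 8.47% of all tested probe sets were separated in that direction. For the other genes of the list the groups overlapped. Among these were the brightest, Cnp (-0.01) and Aqp4 (0.23), and the myelin gene Mag (0.23). In the whole list 8 of 9 genes were above 0, with a median log2 fold change of 0.23, and 0 passed limma. Tested probe sets with a gene name had a median of 0.06, with 60% above 0. The cause of this difference was not tested. Litter cannot be told apart from exposure, since no litter held both groups.

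The study asked which receptors were present in the adult cochlea. For 6 of the 10 Notch genes at least 1 probe set exceeded the cutoff on every array: Notch1, Notch2, Notch3, Jag1, Jag2 and Hey1. For Notch4, each tested probe set lay above it on 4 of 6 arrays, not the same 4, and the remaining probe set on none. Hes1 lay above it on 4 of 6 arrays, and Dll1 and Hes5 on none. In terms of probe sets, 8 of 19 exceeded it on every array, 12 on at least 3 arrays, and 7 on none. Probe sets of the same gene often disagreed in level, so a low probe set does not show that the gene is silent, and levels of different genes give no ranking. The authors' deposited receptor table of 1369 probe sets held 1 of the 10 genes, Notch1.

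**Figure D1:**
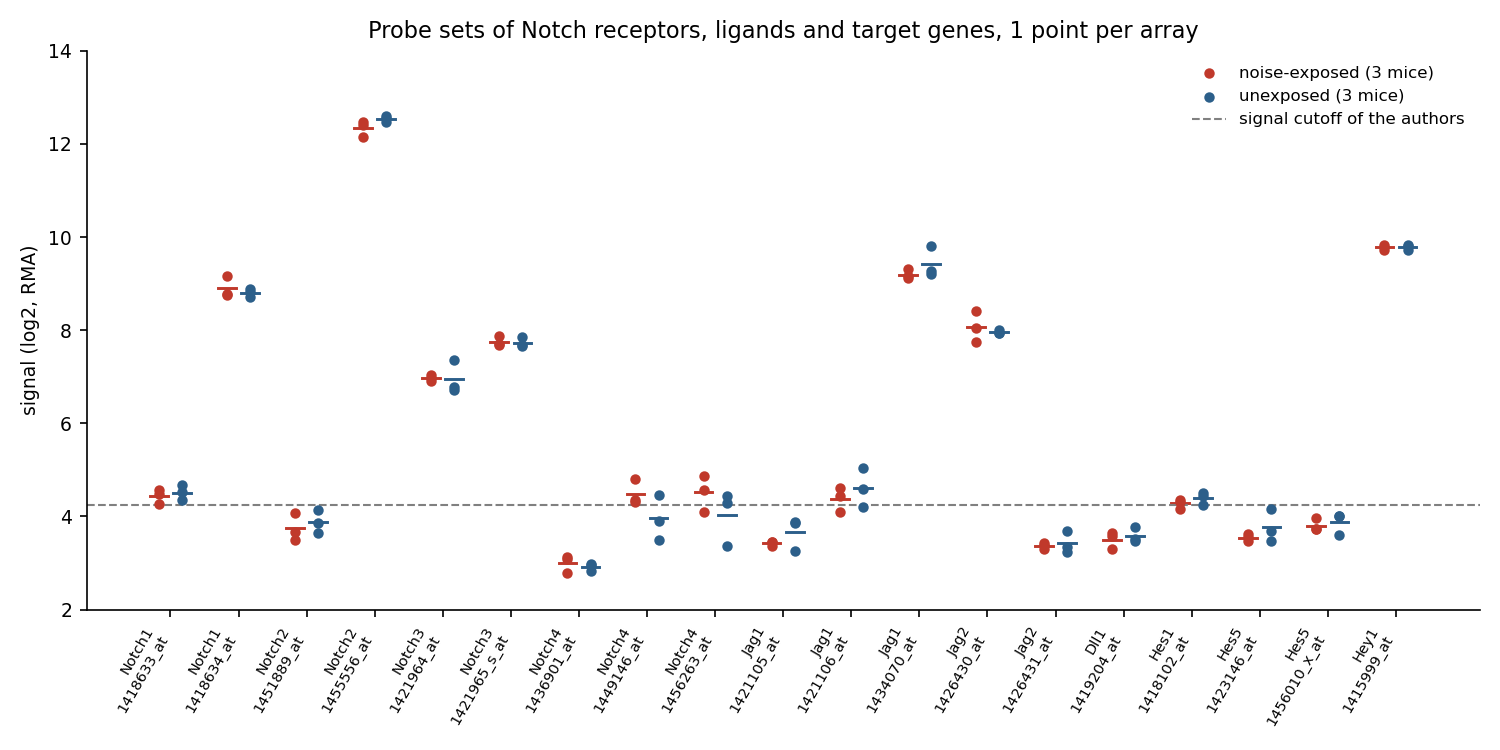
Log2 signal of the 19 probe sets of the 10 Notch genes (y axis) by gene and probe set (x axis); each point is 1 array, noise-exposed left and unexposed right, short bars are group means of 3 mice and the dashed line is the authors' signal cutoff. Probe sets of Notch2, Jag1, Jag2 and Notch1 lie both far above and near or below the cutoff, while within a probe set the groups lie close together.

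Notch1, the receptor best known from inner ear development, was measured by 2 probe sets. Probe set 1418634_at read 8.77, 9.15 and 8.77 on the noise-exposed arrays, against 8.89, 8.81 and 8.71 on the unexposed arrays (log2). The groups overlapped, with the highest value in noise-exposed replicate 2, and the log2 fold change was 0.09 (SE 0.16, 95% interval -0.28 to 0.47). Probe set 1418633_at read 4.56, 4.28 and 4.48 on the noise-exposed arrays, against 4.67, 4.35 and 4.52 on the unexposed arrays, just above the cutoff on all 6. Its log2 fold change was -0.07 (SE 0.16). In the authors' deposited table of 17 arrays normalized together, 11 of them from other series, the same probe sets had means of 7.90 (1418634_at) and 6.43 (1418633_at), with Bonferroni-corrected p-values of 5.61e-11 and 4.35e-08 for lying above 5.1. The lower probe set thus averaged 4.47 in the 6 arrays of this series and 6.43 in that deposited table, where the normalization differs. Neither probe set was among the 9 probe sets in the authors' deposited list of receptors higher after noise. That list had a minimum fold change of 1.45. The Notch1 ratios here were 1.07 (1418634_at) and 0.951 (1418633_at), both below that bound.

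Notch2, a receptor with wide expression in glia, bone and vessels, was bright on 1 of its 2 probe sets. Probe set 1455556_at read 12.16, 12.40 and 12.46 on the noise-exposed arrays, against 12.59, 12.56 and 12.47 on the unexposed arrays. Every noise-exposed value was below every unexposed one, though the closest pair, noise-exposed replicate 3 and unexposed replicate 3, read 12.464 and 12.469. The log2 fold change was -0.20 (SE 0.15, 95% interval -0.54 to 0.14), a ratio of 0.870, and it did not pass (limma, adjusted p = 0.759). Without noise-exposed replicate 1 it was -0.11, and without any other single array it lay between -0.262 and -0.175. The other probe set, 1451889_at, lay below the cutoff on all 6 arrays, between 3.50 and 4.14.

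Notch3, the receptor of vascular smooth muscle cells and pericytes, was detected by both of its probe sets. Probe set 1421964_at read 7.03, 6.90 and 6.97 on the noise-exposed arrays, against 6.78, 7.36 and 6.71 on the unexposed arrays. Probe set 1421965_s_at read 7.88, 7.70 and 7.68 on the noise-exposed arrays, against 7.67, 7.85 and 7.67 on the unexposed arrays. The groups overlapped in both, and both were high on unexposed replicate 2 relative to the other unexposed arrays. Their log2 fold changes were 0.02 (SE 0.20) and 0.02 (SE 0.14). The summed linear signal of 9 mural cell markers was 1792 to 2093 on the noise-exposed arrays and 1915 to 2609 on the unexposed arrays, with the 2609 on unexposed replicate 2. Rgs5, a pericyte gene, made up 1660 of those 2609. Without Rgs5 the sums were 912, 781 and 753 on the noise-exposed arrays and 875, 949 and 681 on the unexposed arrays. The markers differed on unexposed replicate 2. Rgs5 (10.70), Acta2 (8.54), Myh11 (6.63) and Tagln (7.52) were each at their highest of the 6 arrays there. Cspg4 was at its lowest there (3.85, below the cutoff). Pdgfrb (7.83) and Kcnj8 (3.57, below the cutoff) were below their means over the 6 arrays (7.89 and 3.95). Abcc9 (4.37) and Des (4.27) were just above theirs (4.33 and 4.23). On noise-exposed replicate 1, where 1421965_s_at was highest, the full sum was at its lowest, 1792, and the sum without Rgs5 was 912. On unexposed replicate 1, where both Notch3 probe sets were low, the full sum was 2172 and the sum without Rgs5 was 875. Of the 9 genes, 5 exceeded the cutoff on every array and none lay below it on all 6. The brightest were Rgs5 at 10.16 on average in noise-exposed and 10.44 in unexposed mice, as well as Acta2, smooth muscle actin, at 8.02 in noise-exposed and 8.20 in unexposed mice. The part of these cells in the Notch3 values was not tested, and in pooled tissue fewer cells of a type and less RNA per cell cannot be told apart.

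Notch4, a receptor of endothelial cells, was measured near the cutoff by both of its tested probe sets. Probe set 1449146_at read 4.81, 4.31 and 4.36 on the noise-exposed arrays, against 3.91, 4.46 and 3.50 on the unexposed arrays. All 3 noise-exposed arrays and 1 of the 3 unexposed arrays lay above the cutoff, and the groups overlapped through unexposed replicate 2. The log2 fold change was 0.53 (SE 0.26, 95% interval -0.08 to 1.14), a ratio of 1.45. Probe set 1456263_at read 4.88, 4.10 and 4.58 on the noise-exposed arrays, against 4.29, 4.44 and 3.36 on the unexposed arrays. Its log2 fold change was 0.49 (SE 0.32), with 2 arrays of each group above the cutoff. Unexposed replicate 3 was the lowest array for both, and values this near the cutoff do not give an exact size. Neither passed (limma, adjusted p = 0.711 and 0.746). The third probe set, 1436901_at, lay between 2.78 and 3.13 on all 6 arrays.

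The Notch4 difference depended on which unexposed mouse it was set against. Without unexposed replicate 3 the log2 fold changes were 0.31 (1449146_at) and 0.16 (1456263_at), and without unexposed replicate 2 they were 0.79 and 0.70. With sex in the model, which sets the 3 females against unexposed replicate 2 alone, they were 0.03 and 0.08. With dissection day as a model term, which sets them against unexposed replicate 1 alone, they were 0.58 and 0.23. Unexposed replicate 1 is the array on which the central glia sum was lowest. The summed linear signal of 9 endothelial markers was 1089 to 1340 on the noise-exposed arrays and 1109 to 1229 on the unexposed arrays. Unexposed replicate 3, where Notch4 was lowest, had 1167, of which Sox17 and Tek made up 408 and 284. On that array Pecam1 (4.33), Tek (8.15) and Erg (3.87, below the cutoff) were each at their lowest of the 6 arrays. Emcn (7.77) was at its highest there, and the remaining markers were at neither extreme. The median deviation of the list was -0.06 on that array and -0.25 on unexposed replicate 1. Of the 8 endothelial genes that passed the signal filter, 6 were above 0, with a median log2 fold change of 0.10. The 8 values ranged from -0.02 (Emcn) to 0.47 (Tie1, SE 0.38), and none of the 8 passed limma. Tie1 lay above the cutoff on only 3 of 6 arrays. Of these genes 6 exceeded the cutoff on every array and none lay below it on all 6, and the brightest were Sox17 (8.61 in both groups on average) and Tek, the angiopoietin receptor (8.54 in noise-exposed, 8.38 in unexposed mice). The part of endothelial cells in the Notch4 values was not tested.

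**Figure D2:**
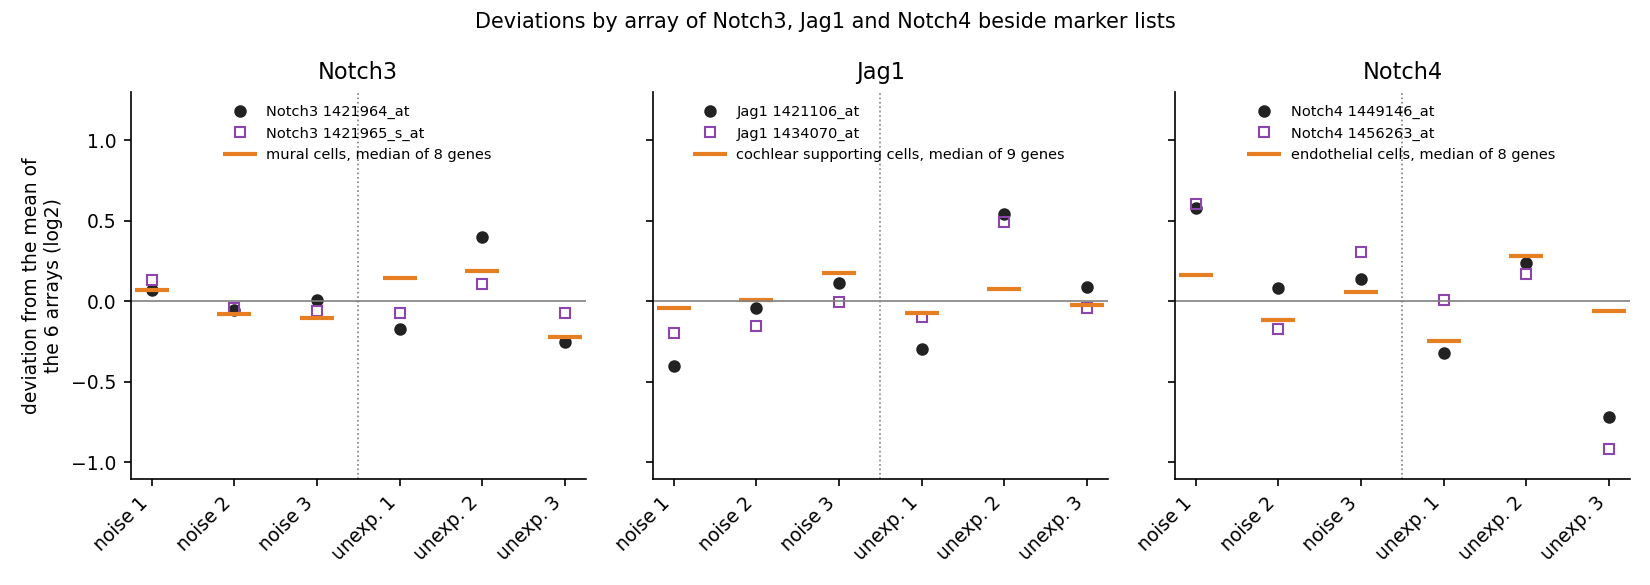
Deviation of each array from the probe set's mean over the 6 arrays (y axis, log2) for both tested probe sets of Notch3, Jag1 and Notch4, with arrays on the x axis, noise-exposed left of the dotted line and unexposed right of it; orange bars are the median deviation of a marker list. Notch3 and Jag1 are highest on unexposed replicate 2 in 3 of the 4 probe sets, Notch3 1421965_s_at being highest on noise-exposed replicate 1, and Notch4 is lowest on unexposed replicate 3.

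Among the ligands, Jag1, which marks supporting cells of the cochlea and is also made in vessels, was measured by 3 probe sets. Probe set 1434070_at read 9.11, 9.16 and 9.31 on the noise-exposed arrays, against 9.21, 9.80 and 9.27 on the unexposed arrays. Probe set 1421106_at read 4.09, 4.45 and 4.60 on the noise-exposed arrays, against 4.19, 5.03 and 4.58 on the unexposed arrays. Unexposed replicate 2 was the highest array for both, although their levels differ widely, and the groups overlapped. The log2 fold changes were -0.24 (SE 0.19, 95% interval -0.68 to 0.21) for 1434070_at and -0.22 (SE 0.24) for 1421106_at. Without unexposed replicate 2 they were -0.05 and -0.01, and without noise-exposed replicate 1 that of 1421106_at was -0.08. Within females, against that array alone, they were -0.61 and -0.65, and within the first day, against unexposed replicate 1 alone, -0.02 and 0.19. The supporting cell markers summed to 5746 to 6231 on the noise-exposed arrays and 5553 to 6286 on the unexposed arrays. The 6286 was on unexposed replicate 2 and the 6231 on noise-exposed replicate 2. Gjb2 made up 4147 of the 6286. Without Gjb2 the sums were 1832, 1853 and 1991 on the noise-exposed arrays and 1732, 2139 and 1989 on the unexposed arrays. Of these 10 genes 7 exceeded the cutoff on every array and 1, Tectb, lay below it on all 6. The brightest were Gjb2, a gap junction gene, at 12.01 on average in noise-exposed and 11.97 in unexposed mice, as well as Prox1 at 9.40 in noise-exposed and 9.53 in unexposed mice. Their part in the Jag1 values was not tested. The third probe set, 1421105_at, lay below the cutoff on all 6 arrays.

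Jag2 and Dll1 are the ligands that nascent hair cells present to their neighbours during development. Jag2 probe set 1426430_at read 8.42, 8.05 and 7.75 on the noise-exposed arrays, against 7.93, 7.93 and 7.99 on the unexposed arrays. The noise-exposed arrays spread on both sides of the unexposed ones, with SDs of 0.33 and 0.04 (n = 3 each), and the log2 fold change was 0.12 (SE 0.19). Without noise-exposed replicate 1 it was -0.06. The other Jag2 probe set, 1426431_at, lay between 3.24 and 3.69 on all 6 arrays. The single probe set of Dll1, 1419204_at, read 3.29, 3.64 and 3.58 on the noise-exposed arrays, against 3.51, 3.47 and 3.78 on the unexposed arrays, all below the cutoff, so no fold is given.

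Of the target genes, Hey1, a repressor of the HEY family that acts in vessels and the inner ear, was the steadiest. It read 9.73, 9.83 and 9.79 on the noise-exposed arrays, against 9.73, 9.81 and 9.82 on the unexposed arrays. The 6 arrays spanned 0.098, and 1.04% of all tested probe sets had a smaller SD within groups. The log2 fold change was -0.01 (SE 0.13, 95% interval -0.31 to 0.30), so ratios between 0.808 and 1.23 lie inside the interval. The SE is that of limma, which draws a small SD towards the typical one of the array.

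Hes1 and Hes5, the classical Notch targets that keep cells from becoming neurons or hair cells, gave weak signals. Hes1 probe set 1418102_at read 4.36, 4.17 and 4.32 on the noise-exposed arrays, against 4.51, 4.44 and 4.24 on the unexposed arrays. It lay above the cutoff on 2 arrays of each group, the groups overlapped, and the log2 fold change was -0.11 (SE 0.15, 95% interval -0.45 to 0.22). Both probe sets of Hes5 lay below the cutoff on all 6 arrays. Probe set 1423146_at ranged from 3.46 to 4.15, and 1456010_x_at, whose suffix marks probes that can also bind other transcripts, from 3.60 to 4.02.

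The Hes5 promoter is shown because it carries the letters of the RBPJ binding motif, while the Hes5 probe sets stayed below the cutoff. Of the target genes only Hes5 was searched; promoters of Hes1 and Hey1 were not analysed here. RBPJ is the nuclear partner of all Notch receptors. The sequence is from RefSeq, build GRCm38.p6, chr4:154960673-154960972, plus strand, from 250 bases before to 50 after the transcript start, with the motif GTGGGAA (or its reverse complement) in capitals.
Hes5 promoter: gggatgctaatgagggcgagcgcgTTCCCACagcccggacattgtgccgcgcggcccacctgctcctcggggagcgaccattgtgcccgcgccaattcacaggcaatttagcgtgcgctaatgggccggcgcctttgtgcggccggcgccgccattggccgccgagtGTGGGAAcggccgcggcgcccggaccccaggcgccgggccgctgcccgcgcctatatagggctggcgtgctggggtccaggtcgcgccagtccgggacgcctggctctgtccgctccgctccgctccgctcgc
The motif was searched on both strands in 9 promoters of 8 of the 10 genes (all except Hes1 and Hey1), and of these 8 genes Hes5 alone held it. It held 2 copies, beginning 226 and 83 bases before the transcript start. Of 32851 promoters of the same length, 6.38% held at least 1 copy and 0.256% at least 2. A match describes the letters and is not a shown binding site.

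The second question was whether any of these genes differed after noise. Of 12 member probe sets, of 8 genes, that passed the signal filter (above the cutoff on at least 3 arrays), 0 passed limma at an adjusted p under 0.05. Over all 25200 tested probe sets 0% were called. The members' adjusted p ranged from 0.711 (Notch4, 1449146_at) to 0.992 (Hey1). At an unadjusted p under 0.05 there were 0 of the 12, against 7.07% of all tested probe sets. The groups did not overlap for 1 of the 12, the Notch2 probe set, against 13.5% of all tested probe sets in either direction and 5.02% in the lower one. By sign, 6 of the 12 were above 0 and 6 below. The 95% interval lay inside a 2-fold change in both directions for 10 of the 12, all except the Notch4 probe sets. With 3 arrays a group, the smallest two-sided p of an exact permutation test is 0.1.

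**Figure D3:**
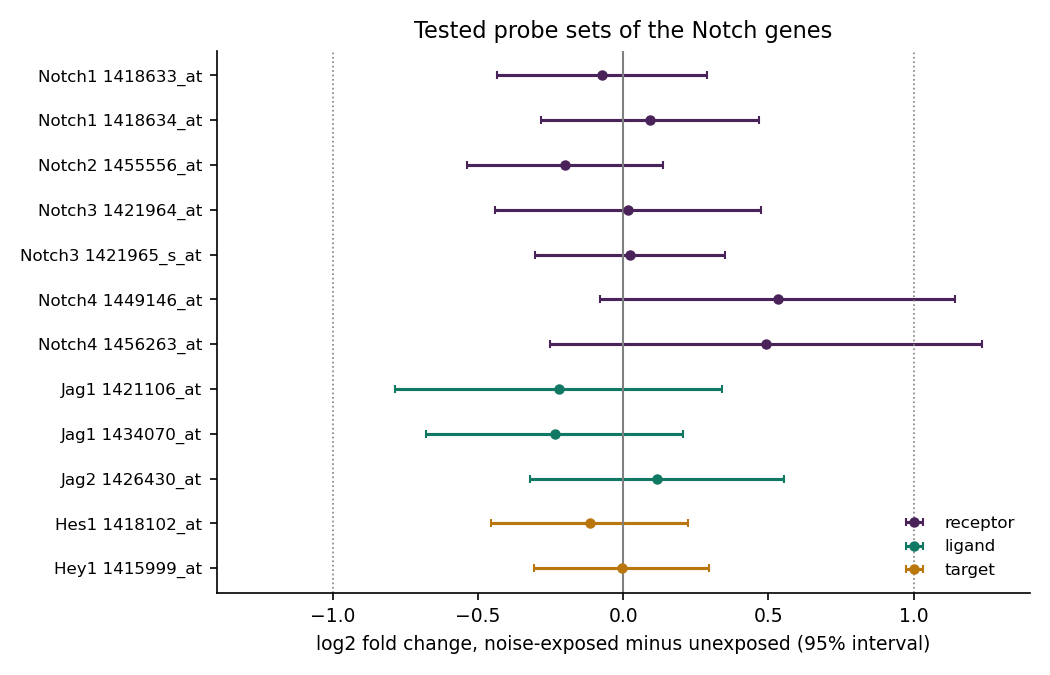
Log2 fold change, noise-exposed minus unexposed (x axis), with its 95% interval from limma for the 12 tested probe sets (y axis), coloured by role; dotted lines mark 2-fold changes. Each interval covers 0, and those of the 2 Notch4 probe sets reach past the 2-fold line on the higher side.

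Other genes of the pathway were read from 6 lists, and none of their genes passed. Of 70 listed genes 65 were on the array and 48 were tested on their brightest probe set. Of these 27 were above 0 and 21 below. Their log2 fold changes ranged from -0.30 to 0.34, and the median was 0.04. All tested probe sets had a median of 0.04, with 14200 of 25200 above 0. The 20791 of them with a gene name, as the listed genes have, had a median of 0.06, with 60% above 0. At an unadjusted p under 0.05 there were 0 of the 48 genes on their brightest probe set, against 7.07% of all tested probe sets. Over all 86 tested probe sets of these genes there were 3, of Adam10 (log2 fold changes -0.53 and -0.47) and Hdac2 (-0.57), all lower in noise-exposed mice. None of the 3 passed after adjustment (limma, adjusted p = 0.667 to 0.672). On the brightest probe sets the groups did not overlap for 6 genes, 4 of them higher in noise-exposed mice (8.47% of all tested probe sets) and 2 of them lower (5.02%). Among the 27 genes that more than 1 tested probe set measured, 8 had values on both sides of 0.

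**Figure D4:**
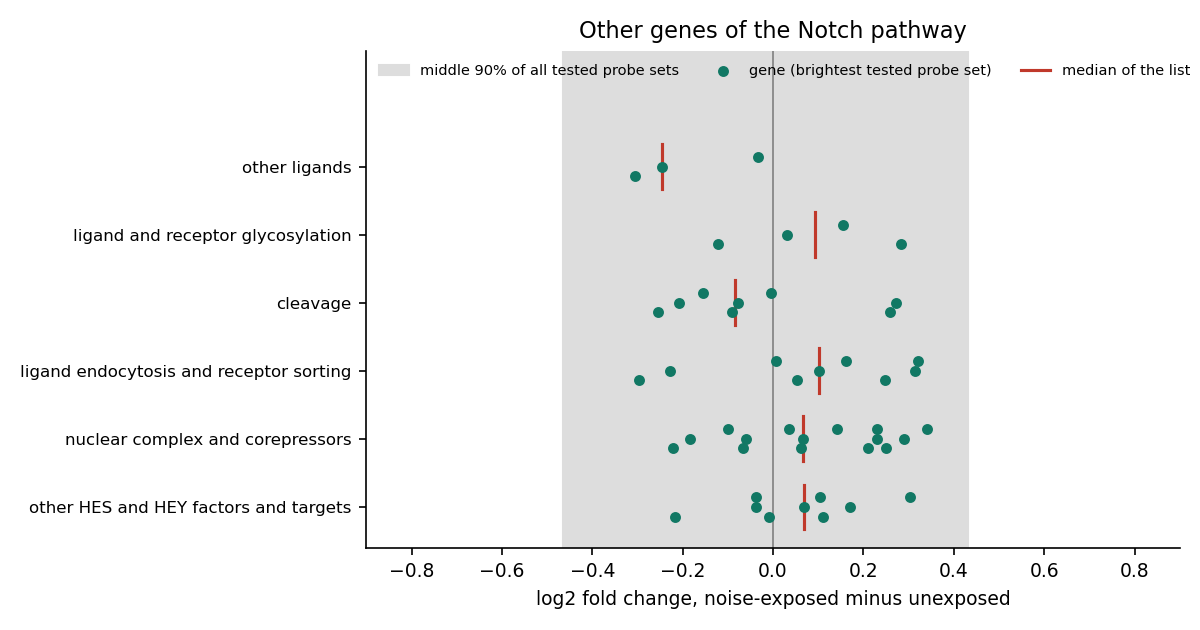
Log2 fold change, noise-exposed minus unexposed (x axis), of the brightest tested probe set of 48 pathway genes in 6 lists (y axis); red bars are list medians and the grey band holds the middle 90% of all tested probe sets, from -0.46 to 0.43. All 48 points lie inside the band.

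Of the other ligands 3 of 8 were tested and all 3 were below 0. Dner, a neuronal ligand with a Delta-like structure, averaged 11.84 ± 0.11 in noise-exposed and 12.09 ± 0.21 in unexposed mice (SD, n = 3 each). Mfap5, a matrix protein that can bind Notch1, averaged 6.92 ± 0.35 in noise-exposed and 7.23 ± 0.20 in unexposed mice. The second tested probe set of each had the same sign. Cntn1, a neuronal adhesion protein, was at -0.03 on its brightest probe set, and its other 2 were above 0, up to 0.44. Of the glycosylation enzymes, which modify the receptors' extracellular repeats, 3 of 4 tested were above 0. Pofut1, which adds O-fucose, was at 0.15 and Lfng, a Fringe enzyme that extends it, at 0.28.

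Cleavage enzymes had 2 of 8 tested genes above 0 and 6 below. Aph1a, a subunit of gamma-secretase, averaged 10.14 ± 0.06 in noise-exposed and 9.88 ± 0.28 in unexposed mice (SD, n = 3 each), without overlap, and all 3 of its probe sets were above 0 (0.26 to 0.39). Psen2, a catalytic subunit of the same complex, was at -0.25. Adam10, named here for its role after its values were seen, was below 0 on all 4 tested probe sets, between -0.53 and -0.15, with adjusted p from 0.667 to 0.786 (limma). Its brightest probe set averaged 11.24 ± 0.03 in noise-exposed and 11.40 ± 0.08 in unexposed mice, without overlap.

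Genes of ligand endocytosis and receptor sorting had 7 of 9 tested above 0 on their brightest probe sets. Of these 7, Itch, Dtx2, Dtx4 and Nedd4 also had probe sets below 0, and over all 19 tested probe sets of the list 8 were above 0 and 11 below. Itch, a ubiquitin ligase, was at 0.05 on its brightest probe set and below 0 on its other 3, down to -0.37. Mib1, the ubiquitin ligase that readies ligands for signalling, averaged 10.80 ± 0.16 in noise-exposed and 11.10 ± 0.08 in unexposed mice (SD, n = 3 each). It was below 0 on all 3 probe sets, from -0.30 to -0.02. Numb, an inhibitor of the receptors, averaged 8.20 ± 0.07 in noise-exposed and 7.95 ± 0.12 in unexposed mice. For both genes the groups did not overlap on the brightest probe set, and neither passed (limma, adjusted p = 0.711 and 0.723).

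Nuclear factors had 10 of 15 tested genes above 0. Tle2, a Groucho-type corepressor recruited by HES proteins, averaged 5.71 ± 0.14 in noise-exposed and 5.37 ± 0.14 in unexposed mice (SD, n = 3 each), a log2 fold change of 0.34 (SE 0.15, limma adjusted p = 0.704). Hdac2, a histone deacetylase, was at 0.29 on its brightest probe set and between -0.57 and 0.29 over its 3 tested ones. Rbpj itself, also named after its values were seen, averaged 8.77 ± 0.04 in noise-exposed and 8.95 ± 0.13 in unexposed mice (SD, n = 3 each). Its 3 probe sets lay between -0.36 and -0.18 (lowest adjusted p = 0.715). Among the other HES and HEY factors and reported targets 5 of 9 tested were above 0. Id3 was at 0.30 and Id2, also an inhibitor of basic helix-loop-helix factors, at -0.22.

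The member with the widest range over the arrays, 1.52, was Notch4 probe set 1456263_at. The named genes whose values followed it most closely over the 6 arrays were Cnot6 (Pearson's r 0.9945), Akap9 (0.993) and Crip3 (0.991). These are the highest of the named probe sets among 25200 tested ones, the arrays share 1 normalization, and Notch4 lay near the cutoff, so the likeness is a description only.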

How the data were processed

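Messenger RNA of 6 mice was measured on 1 Affymetrix mouse genome array each, after reverse transcription and linear amplification of all RNA of a mouse, per the labels' protocols. The authors deposited log2 signals made by robust multi-array averaging (RMA) of the 6 arrays together in R 2.6.1 with Bioconductor 2.1, per their deposited code file. RMA equalizes the distributions, so a shift of most transcripts in 1 direction is not visible. The authors' deposited table of 17 arrays gives a mean on the log2 scale, an SD (a score of spread) and a Bonferroni-corrected p-value per probe set, and their deposited list of called receptors was made with SAM 3.02.

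Of 45101 probe sets, 34958 had 1 gene symbol, 932 had several and the others none; 34754 matched RefSeq by Entrez ID. No coordinates of probe sets are given, since the files name no build. After removal of 64 control probe sets, the 25200 above the authors' cutoff on at least 3 of 6 arrays were fitted with limma 3.58.1 in R 4.3.3 (lmFit, eBayes, two-sided, Benjamini-Hochberg over all, call under 0.05). Groups and replicate numbers come from the labels, which describe separate animals; the number of arrays limits the precision. The SAM of the authors covered selected receptors only, so limma was used for all genes. Each probe set of a member is reported; pathway lists use the brightest tested probe set per gene. From each pathway list the 2 genes with the lowest unadjusted p were named, from marker lists the 2 brightest, and as like genes the 3 with the highest r; Adam10, Rbpj, the lowest Hdac2 fold change, Cntn1, Itch, Dtx2, Dtx4, Nedd4 and the marker genes named beyond that rule were chosen after their values were seen. Members and lists were chosen with earlier results of these data known. The fit was tested on simulated data. Alternatives covered normalization, filter, day, sex, replicate block, variance model and each array left out. Equal replicate numbers did not pair the samples: their deviations correlated at 0.094, 0.025 and -0.038.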

Additional observations from a re-analysis of the deposited data

How the results depend on the processing

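No member probe set and no other pathway gene passed limma under any of the alternatives run (renewed quantile normalization, no filter on signal, a filter on all 6 arrays, day, sex, replicate block, variance model, each array left out, and every probe set per pathway gene). The lowest adjusted p of a member was 0.245, for Notch4 1449146_at without unexposed replicate 2. Its unadjusted p there was 0.0085 (limma). With an intensity trend and robust variances, Notch2 1455556_at had an unadjusted p of 0.047 (limma, adjusted p = 0.714). Apart from the fit with sex, which leaves 1 unexposed female, no other member value had an unadjusted p under 0.05. With the replicate number as a block, 0 members and 0 of all probe sets passed, as without it; the numbers do not pair the mice. Leaving out 1 array gave 0 to 15 calls over all probe sets, the 15 without unexposed replicate 2. The count of member probe sets that exceed the cutoff on every array was 8, and it was 7 with the cutoff 5.1 of the 17-array table, 12 on at least 3 arrays and 8 after renewed quantile normalization.

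Of 152 recomputed log2 fold changes of the 12 tested member probe sets, 20 changed sign, all of values that were not called. Probe sets of Hes1, Notch2 and Notch4 and Jag1 1434070_at kept their sign in every alternative run, 5 probe sets in all. After renewed quantile normalization Notch3 was at -0.021 (1421964_at) and -0.0072 (1421965_s_at). With day as a term Jag1 1421106_at was at 0.19 and Hey1 at 0.053. With sex as a term Notch1 1418633_at was at 0.091, and Notch3 at -0.39 (1421964_at) and -0.10 (1421965_s_at). With 1 array left out the ranges were -0.11 to 0.22 (Notch3 1421964_at), -0.037 to 0.084 (Notch3 1421965_s_at), -0.056 to 0.28 (Jag2), -0.034 to 0.022 (Hey1), -0.15 to 0.0093 (Notch1 1418633_at) and -0.037 to 0.16 (Notch1 1418634_at), and, without a change of sign, -0.26 to -0.11 (Notch2), -0.19 to -0.057 (Hes1), -0.34 to -0.048 (Jag1 1434070_at), -0.43 to -0.0071 (Jag1 1421106_at), 0.31 to 0.79 (Notch4 1449146_at) and 0.16 to 0.70 (Notch4 1456263_at). The cause of these changes was not tested. Signals near the cutoff (Notch4, Hes1, Jag1 1421106_at, Notch1 1418633_at) limit what can be said of those probe sets.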
